A study of Homo sapiens with 18 samples.

Results

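The keratins of simple and hair type are 9 genes whose products build intermediate filaments. They are the simple-epithelium keratins KRT7, KRT8, KRT18 and KRT19, the epithelial keratins KRT80 and KRT17, and the hair keratins KRT81, KRT86 and KRT34. They were found by Ensembl identifier among the 57773 genes of the deposited expression table, and all 9 were present. Expression was measured by RNA sequencing in 18 libraries of RPE1 cells, an immortalised human line from retinal pigment epithelium. Dividing cells had received 2.5 uM ZM447439, an inhibitor of Aurora kinases, for 72 h, and after weeks of recovery single cells were grown into clones. The comparison is between 3 tetraploid clones (4N-1, 4N-2 and 4N-3) and 3 diploid clones (2N-1, 2N-2 and 2N-3), with 3 libraries, lettered A, B and C, of each clone. Clones of both ploidies came through the drug, so the diploid clones are survivors too and not untreated cells. Each diploid clone was taken from the same plates as the tetraploid clone of its number, which gives 3 pairs. Cells of 4N-2 and 2N-2 had in addition been stained with Hoechst 33342 before they were cloned. Ploidy was read by FACS. All clones grew in DMEM with 10% FBS. Every group is 1 clone, so a difference within a pair is a difference between 2 clones. Its p sets that difference against a spread between libraries within clones, estimated over all 6 clones together. It does not measure the effect of ploidy. The series calls the 3 libraries of a clone biological replicates. In bulk RNA fewer cells with a transcript and less of it per cell cannot be told apart.

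Keratin filaments assemble from obligate partners, a type I (acidic) chain with a type II (basic) chain. KRT8 and KRT18 are the pair of simple epithelia and the first keratins to appear in the embryo; KRT8 is type II and KRT18 type I. KRT7 is the type II keratin of ducts and of many glandular epithelia, and KRT19 is a short type I keratin that pairs with both. KRT80 is a type II keratin found near cell junctions, KRT17 a type I keratin of basal and wounded epithelium, and KRT81, KRT86 (both type II) and KRT34 (type I) are keratins of the hair shaft. The retinal pigment epithelium makes KRT8 and KRT18, and cultured RPE cells also hold much vimentin, a mesenchymal filament protein.

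In GENCODE 29 (GRCh38 positions, where the submitters' notes name hg19) the 5 type II members and KRT18 lie in the keratin cluster of chromosome 12, and KRT19, KRT17 and KRT34 in that of chromosome 17. On chromosome 12 the order is KRT80 (52168996 to 52192000, minus strand), KRT7 (52232520 to 52252186, plus), KRT86 (52249300 to 52309163, plus), KRT81 (52285913 to 52291534, minus), KRT8 (52897187 to 52949954, minus) and KRT18 (52948871 to 52952901, plus). The span of KRT86 takes in the last 2887 bases of KRT7, on the same strand, and the whole of KRT81 (5622 bases), on the opposite strand, with 0 shared exon bases in each case. KRT8 and KRT18 lie head to head and overlap by 1084 bases, of which 525 are exonic on both strands. On chromosome 17 the order is KRT34 (41377650 to 41382403), KRT19 (41523617 to 41528308) and KRT17 (41619441 to 41624842), all on the minus strand. The table names the genes by Ensembl identifier, ENSG00000111057 for KRT18 and ENSG00000170421 for KRT8, ENSG00000135480 for KRT7, ENSG00000167767 for KRT80, ENSG00000205426 for KRT81, ENSG00000170442 for KRT86, ENSG00000131737 for KRT34, ENSG00000171345 for KRT19 and ENSG00000128422 for KRT17. The library kit keeps the strand, but whether counting used it is not given in the sources used here.

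Sequence decides which of these genes the reads can tell apart. KRT81 and KRT86 are 94.15% identical over 1454 aligned coding bases, with 85 differences and an identical run of 605 bases. Of the 50-base words in the KRT81 transcript, 38.4% also occur in KRT86, and 33.3% of those of KRT86 occur in KRT81. The read length is not given in the sources used here. A pair of stretches shows the extremes, both from GENCODE 29 transcripts and counted from the first coding base. Over coding bases 61 to 180 the genes have 0 differences, so this line stands for both:
KRT81 and KRT86, 61 to 180: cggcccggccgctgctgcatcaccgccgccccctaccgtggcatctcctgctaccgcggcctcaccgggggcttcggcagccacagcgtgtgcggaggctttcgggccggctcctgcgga
Over coding bases 1207 to 1326, near the end of the coding sequence, they have 19 differences, set in capitals:
KRT81: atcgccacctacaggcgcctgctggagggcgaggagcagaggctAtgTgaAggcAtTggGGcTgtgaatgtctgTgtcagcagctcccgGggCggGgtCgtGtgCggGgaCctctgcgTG
KRT86: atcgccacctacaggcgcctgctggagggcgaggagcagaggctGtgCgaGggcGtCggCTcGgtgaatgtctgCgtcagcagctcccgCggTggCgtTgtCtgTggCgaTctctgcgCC
KRT8 and KRT18 have a different problem, many processed pseudogenes. Of the 50-base words of the KRT18 transcript 47.6% occur in another gene (21.5% in KRT8, which it overlaps on the opposite strand). Of those of KRT8 36.9% do. Words were sought on both strands, so these shares take in overlaps at the same locus and are not those of pseudogenes alone. KRT18 and its most abundant pseudogene, KRT18P11 on chromosome X, are 95.86% identical over 1279 aligned bases.
KRT80 shares 0.42% of its words with other genes, KRT19 1.79%, KRT7 10.8% (10.4% in its antisense gene KRT7-AS), KRT34 11.4% and KRT17 16.0%.

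Levels are given in the deposited RPKM (reads per kilobase of gene and per M reads of the library). The length behind them is the genomic span with introns, so RPKM compares clones but not genes. Between genes, reads per M and kilobase of the principal transcript were used, a scale whose ratios between genes depend on the transcript chosen. A gene was tested where it had 1 RPKM or more in 3 or more libraries (9704 genes). Fold changes are log2(RPKM + 0.5) differences from limma, 4N over 2N, with the standard error and a p adjusted by Benjamini-Hochberg over all 9704 genes. Rose and fell mean an adjusted p below 0.05, and a call of 2-fold needs in addition a log2 change of at least 1. KRT7, KRT8, KRT18, KRT80 and KRT81 were tested in this way. The RPKM values also gave back whole reads, and limma-voom on these reads (10 or more reads in 3 or more libraries, 23397 genes) added KRT86 and KRT34. KRT19 and KRT17 passed neither filter. Libraries held 37.2 to 54.4 M reads in genes.

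On the transcript scale KRT18 was the most abundant member, at 215 reads per M and kilobase (mean of 18 libraries, range 167 to 314), and KRT8 came next at 129 (94.1 to 193). KRT80 followed at 31.3 (22.8 to 41.9) and KRT7 at 13.6 (7.77 to 21.8). KRT86 and KRT81 were alike at 5.65 (2.86 to 9.79) and 5.63 (1.23 to 9.42). KRT34 stood at 0.41, KRT19 at 0.0924 and KRT17 at 0.00536. KRT8 and KRT18 together made up 83.2% to 89.2% of the summed level of the 9 genes. The cells thus carried a simple keratin set with KRT80, low hair keratin transcripts, and hardly any KRT19 or KRT17.

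Library A of 2N-3 stood apart before any comparison. On the second principal component of the tested genes it lay at 55.6, against -9.83 to 0.54 for the other 17 libraries. In it KRT7 was 1.97 times, KRT8 1.69 times, KRT18 1.71 times and KRT81 2.00 times the mean of B and C of the same clone, and for each of these 4 genes it was the highest of the 18 libraries. KRT80 was lower there, 0.792 times, and KRT86 was 0.996 times. Genes with short transcripts were high in that library and genes with long ones low. Among 9109 tested genes with a length, the median log2 ratio of A to the mean of B and C went from 0.55 (transcripts up to 1000 bases) to -0.47 (over 8000 bases), with a Spearman rho of -0.48 across genes, which are not independent replicates. For each library of the other 5 clones against its own fellows rho lay between -0.21 and 0.20. KRT80 has a longest transcript of 3894 bases and the 4 high genes of 1696 to 2437, but KRT86, at 0.996 times, has 2217, within their range. The part of transcript length in the keratin values of this library was not tested. Library C of 4N-3 also lay away from its fellows, at -9.09 on the first component against 2.41 and 2.56. The pair 3 values of the tested members are therefore given with and without these libraries, and so are those of other named genes whose call changes.

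**Figure D1:**
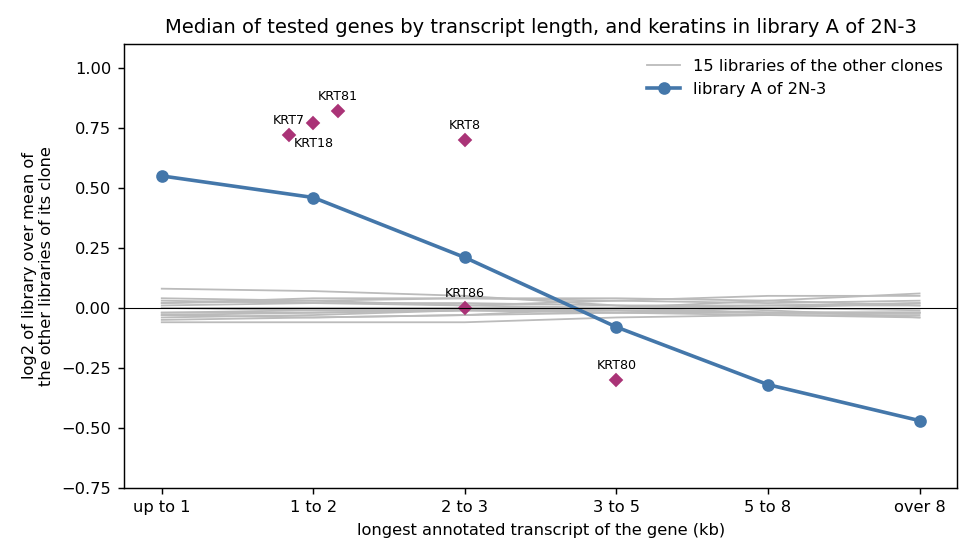
Median log2 ratio of a library to the mean of the other libraries of its clone (y axis), by longest annotated transcript (x axis, kb), for library A of 2N-3 (blue) and the 15 libraries of the other clones (grey), with 6 keratins in library A as diamonds. The blue line falls from 0.55 to -0.47 while the grey lines stay near 0, and KRT7, KRT8, KRT18 and KRT81 lie above the line at their length and KRT80 and KRT86 below it.

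In pair 1 3 of the 5 tested members rose in the tetraploid clone (KRT7, KRT18 and KRT80) and none fell. Among all 9704 genes 20.9% passed in pair 1, 10.6% by rising. In pair 2 again 3 of 5 rose (KRT8, KRT18 and KRT80), where 37.5% of all genes passed and 21.5% rose. In pair 3 none rose and KRT81 fell, where 3.4% of all genes passed, 1.99% by rising and 1.41% by falling. The median log2 change of the 5 members was 0.51, 0.37 and -0.22 in pairs 1 to 3, beside -0.01, 0.04 and -0.02 for all genes tested. Libraries of the 2 clones did not overlap for 5 of the 5 tested members in pair 1, 3 in pair 2 and 1 in pair 3. Over all genes 56.4%, 61.8% and 16.5% did not overlap. The 3 pairs share no library.

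**Figure D2:**
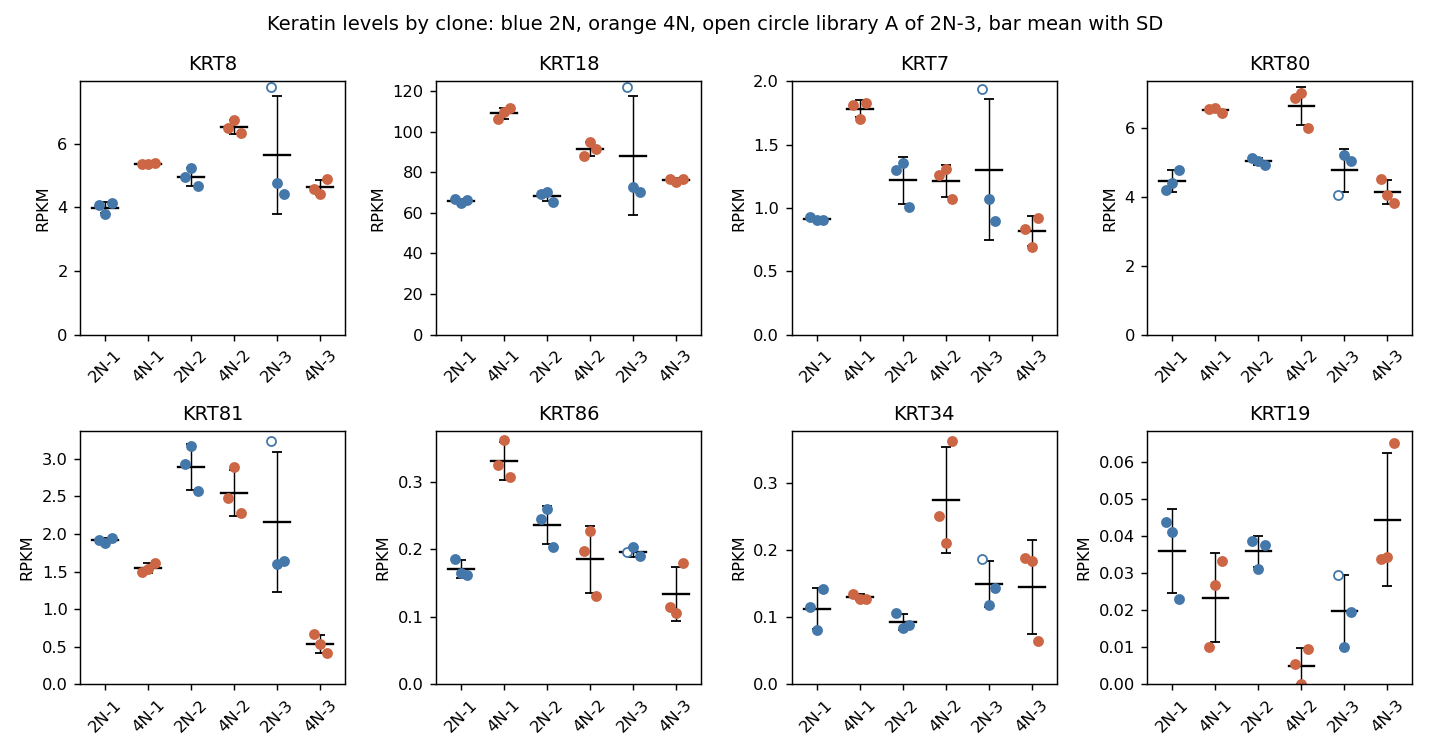
RPKM (y axis) of 8 keratins by clone (x axis); points are libraries, the bar is the mean and the whiskers are the SD of 3 libraries. KRT8, KRT18 and KRT80 are higher in 4N-1 and 4N-2 than in their diploid partners, KRT81 is lowest in 4N-3, and the open circle is library A of 2N-3.

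KRT18, the type I partner, read 66.6, 64.7 and 66.1 RPKM in libraries A to C of 2N-1, in this order, and 106, 110 and 112 RPKM in 4N-1. It read 69.1, 70.5 and 65.4 RPKM in 2N-2 and 88.2, 95 and 91.3 RPKM in 4N-2. In 2N-3 it read 122, 72.6 and 70.2 RPKM and in 4N-3 76.8, 75 and 76.6 RPKM. The 4N libraries lay above all libraries of their diploid partner in pairs 1 and 2, and in pair 3 library A of 2N-3 alone lay above all 3 of 4N-3 while B and C lay below them. KRT18 rose by 0.72 (log2, SE 0.15, limma adjusted p = 0.00321) in pair 1 and by 0.42 (SE 0.15, adjusted p = 0.0380) in pair 2. In pair 3 the difference was -0.16 (SE 0.15, adjusted p = 0.503), and 0.09 (SE 0.05) without library A of 2N-3 or without both doubted libraries (adjusted p = 0.333 and 0.247). The pair 2 call was lost when any library of 2N-2 or 4N-2 was left out (adjusted p up to 0.103) or without a filter on low genes (0.0591), and had an adjusted p of 1.62e-06 without A of 2N-3, since all clones share the estimate of the spread.

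KRT8, the type II partner, read 4.06, 3.79 and 4.12 RPKM in 2N-1 and 5.37, 5.37 and 5.38 RPKM in 4N-1. It read 4.95, 5.22 and 4.66 RPKM in 2N-2 and 6.48, 6.76 and 6.32 RPKM in 4N-2. In 2N-3 it read 7.76, 4.75 and 4.42 RPKM and in 4N-3 4.57, 4.42 and 4.87 RPKM. The libraries of pairs 1 and 2 did not overlap, the tetraploid ones being higher, and those of pair 3 did. The log2 difference was 0.39 in pair 1 (SE 0.14, limma adjusted p = 0.0566), which missed the threshold, and KRT8 rose by 0.37 (SE 0.14, adjusted p = 0.0458) in pair 2. Without library A of 2N-3 KRT8 passed in both, with an adjusted p of 5.49e-05 in pair 1 and 2.63e-05 in pair 2. Leaving out B or C of 2N-3 also brought the pair 1 value past the threshold (0.0496 and 0.0313), and leaving out any of the 15 libraries of the other clones brought that of pair 2 to between 0.0506 and 0.127. With no filter on low genes (0.0765) or with a replicate block (0.0528) KRT8 did not pass in pair 2 either. In pair 3 the difference was -0.22 (SE 0.14, adjusted p = 0.337), 0.01 (SE 0.05, adjusted p = 0.95) without that library and -0.03 (adjusted p = 0.791) without both doubted libraries.

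The partners did not move in step in every clone. KRT8 over KRT18, on the transcript scale, was 0.583 ± 0.0178 in 2N-1 (mean ± SD, n = 3), 0.474 ± 0.0114 in 4N-1, 0.696 ± 0.0147 in 2N-2, 0.685 ± 0.0202 in 4N-2, 0.616 ± 0.0120 in 2N-3 and 0.584 ± 0.0245 in 4N-3. The 3 libraries of 4N-1 (0.464 to 0.486) lay below all 15 others (0.564 to 0.712), so KRT18 was highest relative to KRT8 in that clone. Library A of 2N-3, apart in the levels of both genes, had a ratio of 0.613, between B (0.629) and C (0.606). Type II over type I, summed over all members, was 0.857 ± 0.0222 in 2N-1 and 0.73 ± 0.0190 in 4N-1, 1.02 ± 0.0237 in 2N-2 and 0.96 ± 0.0475 in 4N-2, and 0.865 ± 0.0549 in 2N-3 and 0.78 ± 0.0282 in 4N-3. These ratios were not tested across genes, and they describe transcripts, not filaments.

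**Figure D3:**
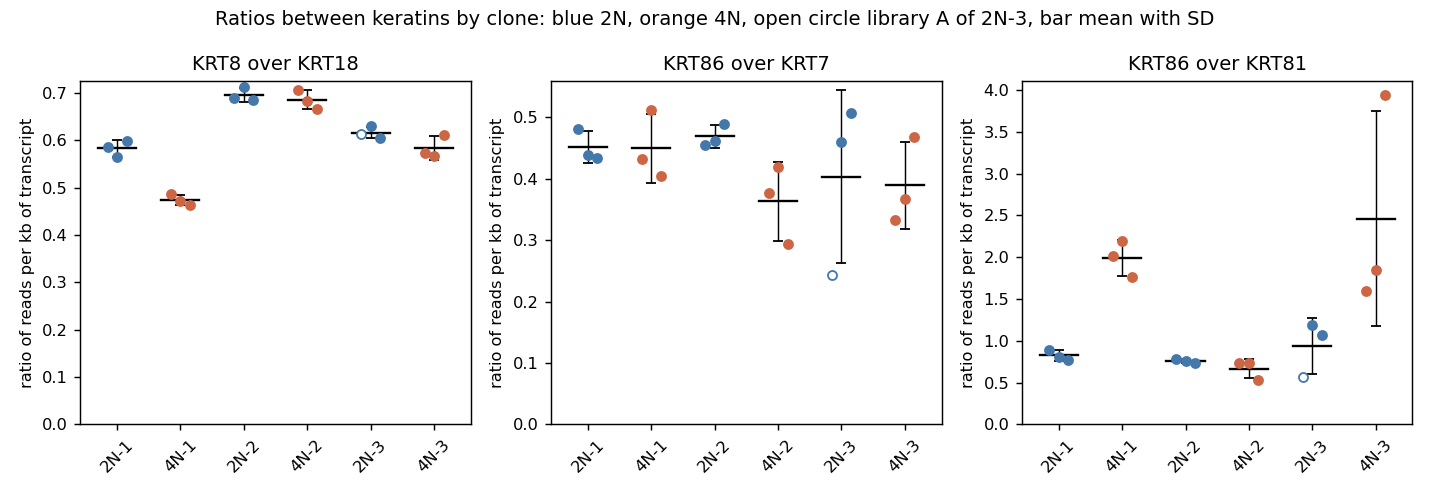
Ratios of 2 keratins in reads per kilobase of transcript (y axis) by clone (x axis); points are libraries, the bar is the mean and the whiskers are the SD. KRT8 over KRT18 is lowest in 4N-1, KRT86 over KRT7 stays between 0.243 and 0.512 in every library, and KRT86 over KRT81 runs from 0.531 to 3.94.

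KRT80, the junctional type II keratin, read 4.18, 4.40 and 4.79 RPKM in 2N-1 and 6.56, 6.59 and 6.44 RPKM in 4N-1. It read 5.12, 5.03 and 4.92 RPKM in 2N-2 and 6.88, 7.02 and 6.0 RPKM in 4N-2. In 2N-3 it read 4.05, 5.20 and 5.03 RPKM and in 4N-3 4.5, 4.06 and 3.82 RPKM. The 6 libraries of 4N-1 and 4N-2 were the highest of the 18. KRT80 rose by 0.51 (SE 0.09, limma adjusted p = 0.00100) in pair 1 and by 0.37 (SE 0.09, adjusted p = 0.00406) in pair 2, and passed in both without each library in turn (adjusted p up to 0.00667 and 0.0222). The pair 3 difference was -0.18 (SE 0.09, adjusted p = 0.262), and without library A of 2N-3 it was -0.28 (SE 0.07, adjusted p = 0.0381), a fall, as it was without both doubted libraries (-0.23, adjusted p = 0.0437).

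KRT7, the ductal type II keratin, read 0.930, 0.903 and 0.903 RPKM in 2N-1 and 1.82, 1.71 and 1.83 RPKM in 4N-1. It read 1.3, 1.35 and 1.00 RPKM in 2N-2 and 1.26, 1.31 and 1.07 RPKM in 4N-2. In 2N-3 it read 1.94, 1.07 and 0.901 RPKM and in 4N-3 0.835, 0.693 and 0.924 RPKM. The 4N-1 libraries lay above every other library except A of 2N-3, the libraries of pair 2 overlapped, and in pair 3 they overlapped as well. KRT7 rose by 0.69 (SE 0.15, limma adjusted p = 0.00493) in pair 1. The difference was 0.00 (SE 0.15, adjusted p = 0.997) in pair 2 and -0.41 (SE 0.15, adjusted p = 0.164) in pair 3. In pair 3 it became -0.17 without A of 2N-3 (adjusted p = 0.385), -0.23 without both doubted libraries (0.121), and -0.57 without C of 2N-3, where it passed (adjusted p = 0.0389). At these low RPKM values the pseudocount shrinks the change: in reads per M 4N-1 over 2N-1 was 1.95 (95% exact interval 1.85 to 2.05, counting error only).

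KRT81, a type II keratin of the hair cortex, read 1.92, 1.89 and 1.95 RPKM in 2N-1 and 1.49, 1.53 and 1.62 RPKM in 4N-1. It read 2.92, 3.17 and 2.57 RPKM in 2N-2 and 2.48, 2.88 and 2.27 RPKM in 4N-2. In 2N-3 it read 3.23, 1.60 and 1.64 RPKM and in 4N-3 0.667, 0.530 and 0.422 RPKM. The 3 libraries of 4N-3 were the lowest of the 18 and held 373 KRT81 reads together, against 1443 in 2N-3. KRT81 fell by 1.3 (SE 0.17, limma adjusted p = 3.91e-04) in pair 3, the only 2-fold call among the 5 tested members in any pair (background 0.33% of genes in pair 3, 1.45% in pair 1 and 4.84% in pair 2). Leaving out A of 2N-3 gave -1.03 (adjusted p = 2.61e-05), still a call. Leaving out C of 4N-3 as well gave -0.95 (adjusted p = 6.36e-05), which is short of 2-fold on this scale. The pseudocount shrinks these changes: on reads the difference was -1.93 (SE 0.24, limma-voom adjusted p = 3.19e-05), with a pseudocount of 0.1 it was -1.76, and the reads per M of 4N-3 were 0.256 times those of 2N-3 (95% exact interval 0.228 to 0.287, counting error only). With the 6 libraries of pair 3 alone the same -1.3 had an adjusted p of 0.287, and 2 genes were called. The differences in pairs 1 and 2 were -0.24 (SE 0.17, adjusted p = 0.359) and -0.15 (SE 0.17, adjusted p = 0.512). Without A of 2N-3 that of pair 1 passed (adjusted p = 0.0432).

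KRT86, the hair keratin beside KRT81, was below the RPKM filter because of its span of 59864 bases, and was tested on reads. It held 487, 409 and 360 reads in 2N-1 and 821, 1034 and 824 in 4N-1. It held 729, 850 and 554 reads in 2N-2 and 467, 544 and 348 in 4N-2. In 2N-3 it held 424, 522 and 498 reads and in 4N-3 261, 276 and 457. In reads per M the 4N-1 libraries were the 3 highest. KRT86 rose by 0.95 (log2, SE 0.18, limma-voom adjusted p = 0.00108) in pair 1, where 10.0% of the 23397 genes rose and 9.04% fell, and stayed past the threshold without each library in turn. The difference was -0.39 (SE 0.18, adjusted p = 0.0938) in pair 2 and -0.60 (SE 0.19, adjusted p = 0.0815) in pair 3. The libraries of pair 3 did not overlap. In pair 2 21.4% and in pair 3 2.95% of genes fell (3.36% rose in pair 3). Without C of 4N-3 KRT86 passed as a fall in both, at -0.39 (adjusted p = 0.0483) and -0.83 (adjusted p = 0.0108). The pair 2 fall also appeared without B of 4N-2 (-0.56, adjusted p = 0.0317) and the pair 3 fall without C of 4N-2 (-0.60, adjusted p = 0.0350).

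KRT86 was closer to KRT7 than to KRT81 in these libraries, a difference that was not tested. Over the 18 libraries the Pearson r of log2(RPKM + 0.5) was 0.81 between KRT86 and KRT7 (0.92 without A of 2N-3) and 0.33 between KRT86 and KRT81 (0.36 without it). Without the 2 libraries farthest from the KRT86 median they were 0.74 and 0.54, and in pair 3 both KRT86 and KRT81 were lower in the tetraploid clone with no overlap. Clone means of KRT86 over KRT7 ran from 0.363 to 0.469, while those of KRT86 over KRT81 ran from 0.668 (4N-2) to 2.46 (4N-3). The span of KRT86 overlaps KRT7 on the same strand. KRT7 had 1.55 to 3.25 times the reads of KRT86 in every library, and whether reads of the KRT7 end were counted for KRT86 was not tested. KRT81 had more reads than KRT86 in 9 of 18 libraries, although it lies wholly inside the KRT86 span, so the reads counted for KRT81 were not all counted for KRT86 as well. How reads shared by the near-identical stretches of both genes were given out is not stated, and the values of both are uncertain to that extent.

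KRT34, a type I keratin of the hair cortex, held 24, 16 and 25 reads in 2N-1 and 27, 29 and 27 in 4N-1. It held 25, 22 and 19 reads in 2N-2 and 47, 40 and 77 in 4N-2. In 2N-3 it held 32, 24 and 30 reads and in 4N-3 34, 38 and 13. The 3 libraries of 4N-2 were the highest of the 18. KRT34 rose by 1.53 (log2, SE 0.33, limma-voom adjusted p = 0.00105) in pair 2, a 2-fold call where 15% of the 23397 genes had one and 20.4% rose, and the reads per M were 3.00 times those of 2N-2 (95% exact interval 2.24 to 4.06, counting error only). The differences of 0.24 (SE 0.36) in pair 1 and -0.16 (SE 0.34) in pair 3 had adjusted p of 0.715 and 0.803. The pair 3 value turned to 0.35 without C of 4N-3 (adjusted p = 0.431).

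KRT19, a short type I keratin of simple epithelia, was near the counting floor, with 0 to 13 reads per library. It held 9, 8 and 4 reads in 2N-1, 2, 6 and 7 in 4N-1, 9, 8 and 8 in 2N-2, 1, 0 and 2 in 4N-2, 5, 2 and 4 in 2N-3, and 6, 7 and 13 in 4N-3. The libraries of 4N-2 held fewer than any of 2N-2. From 25 reads in 2N-2 and 3 in 4N-2 the ratio per M was 0.145 (95% exact interval 0.0280 to 0.475), and in pair 3 11 and 26 reads gave 2.34 (1.12 to 5.24). These intervals cover counting error only. KRT19 passed neither filter; fitted with no filter on log2(RPKM + 0.5), where its level is far below the pseudocount, it had differences of -0.03, -0.09 and 0.07 in pairs 1 to 3 (limma adjusted p = 0.482, 0.0170 and 0.193), and it passed the test of a difference between pairs (adjusted p = 0.0123). KRT17, a keratin of basal cells and wound edges, had 7 reads in all and none in 13 of 18 libraries. The most in a library was 3, in C of 4N-2. The 0 reads in 2N-1 allow up to 0.0245 reads per M and the 0 in 4N-3 up to 0.0242, taking 3 reads over the 3 libraries as the limit.

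**Figure D4:**
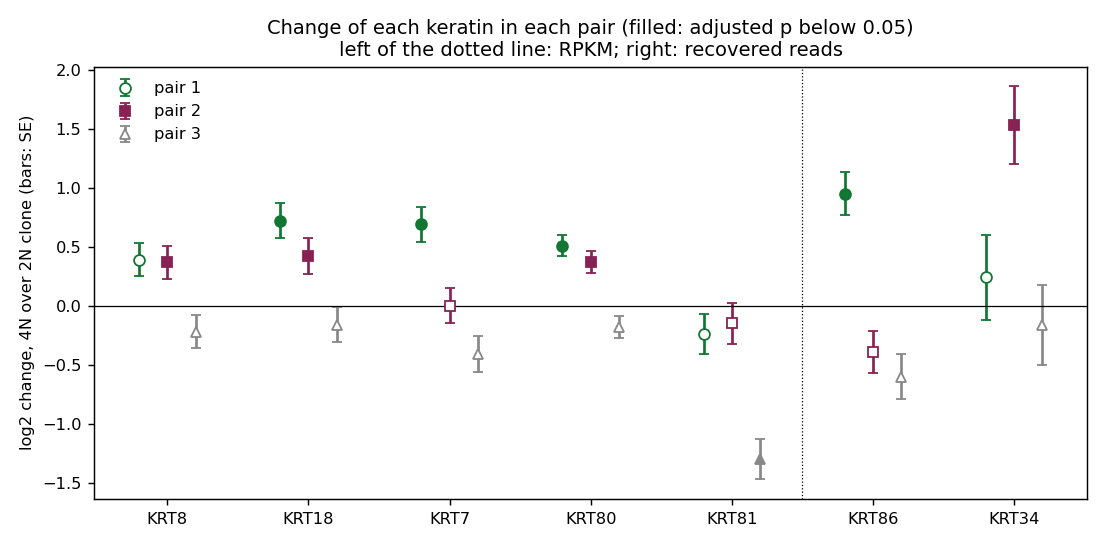
Log2 change of 4N over 2N (y axis, bars are SE) of 7 keratins (x axis) in pairs 1 (circles), 2 (squares) and 3 (triangles); filled marks have an adjusted p below 0.05. KRT18 and KRT80 are filled above 0 in pairs 1 and 2, KRT81 is filled below 0 in pair 3, and KRT86 and KRT34 are filled above 0 in pair 1 and pair 2, respectively.

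Taking clones as the replicates, 3 tetraploid against 3 diploid, no member passed. The mean log2 differences were 0.33 (SE 0.23) for KRT18, 0.18 (SE 0.17) for KRT8, 0.23 (SE 0.17) for KRT80, 0.09 (SE 0.22) for KRT7 and -0.57 (SE 0.24) for KRT81, each with a limma adjusted p of 0.996. By limma 0.0% of all genes passed there and 391 of 9704 (4.03%) had an unadjusted p below 0.05, none of them a member. By limma-voom 0.0% passed, and 1075 of 23397 (4.59%) were below the unadjusted 0.05, again with no member. KRT81 was lower in the tetraploid clone of all 3 pairs, and KRT18, KRT8 and KRT80 were higher in 2 of 3.

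The change of 4N over 2N differed between the pairs. All 5 tested members passed the limma test of a difference between pairs, where 39.0% of all genes did. The adjusted p was 0.00124 for KRT80, 0.00233 for KRT81, 0.00304 for KRT7, 0.0109 for KRT18 and 0.0291 for KRT8. The span between the highest and the lowest pair was 1.15 on the log2 scale for KRT81, 1.11 for KRT7, 0.89 for KRT18, 0.69 for KRT80 and 0.61 for KRT8. On reads KRT86 (span 1.55, adjusted p = 2.46e-04) and KRT34 (span 1.69, adjusted p = 0.0223) passed as well, where 41.5% of genes did. Without A of 2N-3 the spans of KRT8 and KRT7 were 0.38 and 0.87 and their adjusted p 0.00110 and 1.42e-04. The KRT8 call was lost with no filter on low genes (adjusted p = 0.0542) and without B of 2N-1 or without A or B of 4N-3 (adjusted p up to 0.0711), and that of KRT34 without B of 2N-2 or C of 4N-2 (up to 0.0657).

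Among the 3 tetraploid clones all 5 tested members differed, where 50% of all genes did. KRT81 had the widest span, 1.55 (adjusted p = 1.05e-05), with 4N-2 at 2.55 ± 0.310 RPKM, 4N-1 at 1.55 ± 0.0635 and 4N-3 at 0.540 ± 0.123 (mean ± SD, n = 3). KRT7 spanned 0.80, from 1.78 ± 0.0671 RPKM in 4N-1 to 0.817 ± 0.117 in 4N-3. KRT80 spanned 0.62, from 6.63 ± 0.552 RPKM in 4N-2 to 4.13 ± 0.348 in 4N-3. KRT18 and KRT8 had adjusted p of 0.0281 and 0.0336, and each lost its call without any of 6 libraries, those of 4N-1 or 4N-3 for KRT18, and those of 4N-2, A and B of 4N-3 and B of 4N-1 for KRT8 (adjusted p up to 0.0737 and 0.0974), and KRT8 also with no filter (0.0626). Among the 3 diploid clones none of the 5 passed, where 1.58% of all genes did, while 2 (KRT8 and KRT81) had an unadjusted p below 0.05, as did 16.0% of all genes. Without A of 2N-3 these 2 passed, KRT8 with a span of 0.28 (adjusted p = 0.0137) and KRT81 with 0.67 (adjusted p = 0.00229). By limma-voom no member passed among the diploid clones, where 4.44% of genes did, and KRT8, KRT81 and KRT18 had an unadjusted p below 0.05, as did 18.5% of genes. KRT86 and KRT34 passed among the tetraploid clones (limma-voom adjusted p = 3.21e-05 and 0.0115), where 51.1% of genes did, and KRT34 lost its call without C of 4N-2 (0.0918).

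Ordered by mean RPKM, neighbouring clones often could not be told apart. For KRT18 the order was 4N-1, 4N-2, 2N-3, 4N-3, 2N-2 and 2N-1, and steps from 4N-1 to 4N-2 and from 4N-3 to 2N-2 had no overlap of libraries. For KRT8 it was 4N-2, 2N-3, 4N-1, 2N-2, 4N-3 and 2N-1, with no overlap from 4N-1 to 2N-2 and from 4N-3 to 2N-1. For KRT80 it was 4N-2, 4N-1, 2N-2, 2N-3, 2N-1 and 4N-3, with no overlap from 4N-1 to 2N-2 only. KRT7 ran 4N-1, 2N-3, 2N-2, 4N-2, 2N-1 and 4N-3, with no overlap from 4N-2 to 2N-1 only. KRT81 ran 2N-2, 4N-2, 2N-3, 2N-1, 4N-1 and 4N-3, with no overlap at the last 2 steps. For KRT86 and KRT34 only the step from the highest clone (4N-1 and 4N-2) to the next had none. Much of the overlap came from the width of 2N-3: without A its means were 71.4 RPKM for KRT18, 4.59 for KRT8, 0.985 for KRT7 and 1.62 for KRT81, against 88.2, 5.65, 1.3 and 2.15 with it.

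The processed pseudogenes of KRT8 and KRT18 had median changes near those of their parents, with single ones that ran the other way. Of the 146 keratin pseudogenes listed, 119 had reads. Of the 50 named for KRT8 44 had reads, and of the 67 named for KRT18 62. They held 13.9% to 18.2% of the reads of KRT8 and its pseudogenes together and 13.3% to 15.2% for KRT18. Of the 27 KRT8 pseudogenes tested on reads, the median log2 change was 0.39, 0.44 and -0.13 in pairs 1 to 3, and 2, 8 and 0 rose while none fell (limma-voom adjusted p below 0.05, where 10.0%, 20.4% and 3.36% of all genes rose and 19.1%, 41.8% and 6.32% passed in either direction). Of the 23 of KRT18 the medians were 0.67, 0.44 and -0.09, and 12, 8 and 0 rose while 1 fell in pair 2. The lowest in pair 2 were KRT18P59 at -1.09 and KRT8P46 at -0.95, named after their values were seen. Agreement with the parent was not tested. The parents themselves changed by 0.43, 0.40 and -0.24 (KRT8) and 0.73, 0.42 and -0.16 (KRT18) on reads. The most abundant were KRT8P3 at 14.6 RPKM, KRT18P11 at 10.3 RPKM and KRT8P32 at 3.74 RPKM (means of 18 libraries). Their sequences share long words with the parents, so these reads may belong to the parent transcripts, which was not tested. They are no independent evidence of the parents' change.

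**Figure D5:**
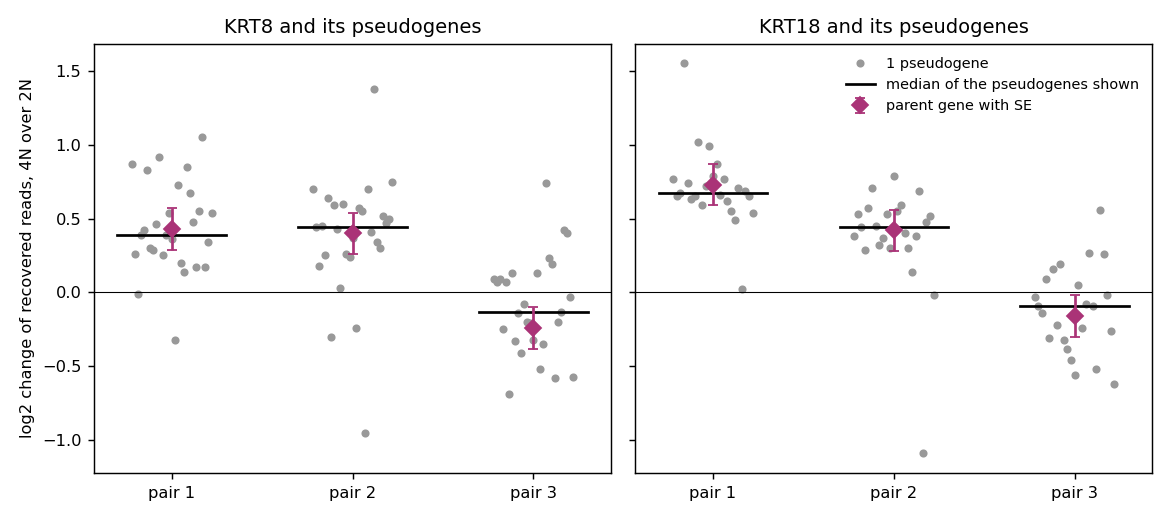
Log2 change of recovered reads, 4N over 2N (y axis), in pairs 1 to 3 (x axis) for each tested pseudogene of KRT8 (27, left) and KRT18 (23, right) as grey points, with their median as a bar and the parent as a diamond with SE. Medians of 0.39, 0.44 and -0.13 and of 0.67, 0.44 and -0.09 lie within 1 SE of the parent in each pair.

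Each member's closest genes, by Pearson r of log2(RPKM + 0.5) over the 18 libraries and keratins aside, are given as a description. The points share clone and library. KRT8 was closest to PLSCR3 (r = 0.99, and 0.98 without the 2 libraries farthest from the KRT8 median), whose read-through TMEM256-PLSCR3 had the same r and shares its reads, and to RABAC1 (0.96 and 0.93). KRT18 was closest to YIF1A (0.96 and 0.94), ILK, the integrin-linked kinase (0.95 and 0.93), and RTL8C (0.93 and 0.92). KRT7 was closest to MPI (0.96 and 0.94), GNAS (0.92 and 0.90) and a gene listed by identifier alone (0.92 and 0.88). For KRT80 the closest were KLF6 (0.90 and 0.87), EPHA2 (0.88 and 0.83) and KDELR3 (0.88 and 0.82), and for KRT81 SEMA3F (0.92 and 0.88), ENKD1 (0.86 and 0.79) and AP002840.2 (0.85 and 0.78). KRT86 was closest to DYSF (0.91 and 0.84), GSTA4 (0.90 and 0.84) and BBS1 (0.88 and 0.81), and KRT34 to TUBB2BP1 (0.94 and 0.89), FTSJ1 (0.93 and 0.88) and KRTAP2-3 (0.93 and 0.86), a hair keratin-associated protein gene. Among the members the highest r of KRT18 was with KRT7 (0.81), that of KRT8 with KRT18 (0.78), and that of KRT80 with KRT86 (0.60), and each of these turned without library A of 2N-3. Without it KRT18 was highest with KRT80 (0.78), KRT8 with KRT80 (0.80) and KRT80 with KRT7 and KRT8 (0.80 each). KRT17 and KRT19 had too few reads for this.

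Of 46 other keratins 20 had no read in any library, among them KRT5, KRT1 and KRT6A, the defining keratins of basal, differentiated and wounded epidermis. By RPKM 2 passed the filter. KRT10, a suprabasal type I keratin, was at 2.98 ± 0.190 RPKM in 2N-1 and 3.00 ± 0.0455 in 4N-1 (mean ± SD, n = 3), with limma adjusted p of 0.977, 0.735 and 0.421 in the 3 pairs, and it was high (6.24 RPKM) in A of 2N-3. KRT15, a basal type I keratin, was at 0.632 ± 0.0709 RPKM in 2N-2 and 2.54 ± 0.345 in 4N-2 (log2 change 1.42, SE 0.09, adjusted p = 2.52e-08). It reached 1 RPKM in 4N-2 alone, so it was tested because of the clone where it is high. On reads the change was 1.99 (SE 0.14, limma-voom adjusted p = 3.61e-09). Of the 5 other keratins tested on reads, only KRT83 also passed in any pair, and it is named after its value was seen. With 347 reads in all, KRT83 fell in pair 3 (-1.73, SE 0.34, limma-voom adjusted p = 0.004), where 2.95% of genes fell. Of 16 markers of stratified epithelium 9 had fewer than 10 reads over the 18 libraries, and 6 were at 0 (IVL, KRT1, KRT5, KRT6A, LOR and SPRR1B). KRT10 was the most abundant of them, with 10983 reads, against 107 for TP63 and 7 for KRT14. The summed level of the list was 14.5 to 30.6 reads per M in diploid and 14.7 to 16.9 in tetraploid libraries, the highest being A of 2N-3. The part of these markers in the keratin changes was not tested.

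Keratins end on desmosomes and hemidesmosomes. Of 7 tested genes of these junctions pair 1 had 2 that rose and 1 that fell, pair 2 had 4 and 1, and pair 3 had 1 and 0, with medians of 0.20, 0.71 and 0.24. Among all 9704 genes 10.6%, 21.5% and 1.99% rose in pairs 1 to 3 and 10.3%, 16.0% and 1.41% fell. On reads 19 junction genes were tested by limma-voom, and the directions were more mixed. Pair 1 had 4 that rose and 4 that fell, pair 2 had 8 and 5, and pair 3 had 3 and 1. Their medians were 0.21, 0.38 and 0.19. Of the 23397 genes on reads 10.0%, 20.4% and 3.36% rose and 9.04%, 21.4% and 2.95% fell. PERP, a desmosomal membrane protein, rose in all 3 pairs, by 0.27, 0.73 and 0.27 (limma adjusted p = 0.0118, 1.17e-06 and 0.0483), the last lost without C of 4N-3 (0.0575). In pair 2 PLEC (plectin), which ties keratins to hemidesmosomes, rose by 0.93 (adjusted p = 2.58e-05) and DSP (desmoplakin), which anchors them at desmosomes, by 0.71 (adjusted p = 0.00339). ITGA6, the integrin chain of hemidesmosomes, rose by 1.15 in pair 2 (adjusted p = 5.61e-07) and fell by 0.45 in pair 1 (adjusted p = 0.00623). CD151, the most abundant of the list, rose by 0.49 in pair 1 (adjusted p = 0.0376). In pair 3 it was at 0.12, and at 0.38 (adjusted p = 0.00898) without both doubted libraries.

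Of 5 tested other intermediate filament genes pair 1 had 3 that fell, pair 2 had 1 in each direction, and pair 3 had none past the test. The share of all genes that passed was 20.9%, 37.5% and 3.4% in pairs 1 to 3, and 10.3% fell in pair 1. NES (nestin) fell by 1.02 and by 0.58 in pairs 1 and 2 (limma adjusted p = 6.42e-07 and 2.27e-05). It reached 1 RPKM in 2N-1 alone, so it was tested because of the clone where it is high, and its call in pair 1 is no support. The 3 falls of pair 1 include NES, so that count is not read against the share of all genes. The nuclear lamins LMNB1 and LMNB2 fell by 0.87 and by 0.55 in pair 1 (adjusted p = 2.85e-04 and 0.0107), and LMNA rose by 0.42 in pair 2 (adjusted p = 0.0105). Without both doubted libraries LMNB2 also passed in pair 3, at 0.33 (adjusted p = 0.0243). VIM (vimentin) had differences of -0.30, -0.30 and -0.06 (adjusted p = 0.111, 0.0736 and 0.768). In reads per M the filament genes other than keratins summed to 4326 to 7914, and the 9 keratins to 601 to 1063 (highest in A of 2N-3 for both).

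Of 9 tested genes for proteins that bind or modify keratins, pair 1 had 2 that rose, pair 2 had 3, and pair 3 had 1 that rose and 1 that fell, with medians of 0.05, 0.20 and -0.03. Among all genes 10.6%, 21.5% and 1.99% rose in pairs 1 to 3, and 1.41% fell in pair 3. On reads 14 of these genes were tested by limma-voom. Pair 1 had 2 that rose and 2 that fell, pair 2 had 5 and 0, and pair 3 had 1 and 1. Of the 23397 genes on reads 10.0%, 20.4% and 3.36% rose and 9.04%, 21.4% and 2.95% fell. TGM2, a transglutaminase that crosslinks proteins, rose in all 3 pairs, by 1.09, 0.61 and 0.89 (limma adjusted p = 4.61e-05, 0.00136 and 8.25e-04). FAM83H, which recruits casein kinase to keratin filaments, was at 0.0994 ± 0.0203 RPKM in 2N-2 and 1.08 ± 0.0578 in 4N-2 (mean ± SD, n = 3). It reached 1 RPKM in 4N-2 alone, so it was tested because of the clone where it is high, and its call there is no support. The 3 rises of pair 2 on RPKM include FAM83H, so that count is not read against the share of all genes. The fitted 1.40 is shrunk by the pseudocount, and on reads, where the filter is lower, the change was 3.44 (SE 0.18, limma-voom adjusted p = 8.82e-11). In pair 3 it fell by 0.37 (adjusted p = 0.00536). PNN (pinin) rose by 0.29 in pair 2 (adjusted p = 0.0276), and DNAJB6, a chaperone that binds KRT18, by 0.21 in pair 1 (adjusted p = 0.00412).

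Of 18 epithelial transcription factors only TFAP2A (AP-2 alpha) passed the RPKM filter. It rose by 0.55 in pair 2 (limma adjusted p = 3.90e-05), where 21.5% of all genes rose. By limma-voom 8 of these factors were tested. Pair 1 had 0 that rose and 2 that fell (background 10.0% and 9.04% of genes). Pair 2 had 3 and 0 (20.4% and 21.4%), and pair 3 had 0 in each direction. Of 9 tested genes that lie beside the keratin clusters pair 1 had 1 that rose, pair 2 had 2 in each direction, and pair 3 had 1 that rose, with medians of 0.16, 0.11 and -0.04. The share of all genes that passed was 20.9%, 37.5% and 3.4% in pairs 1 to 3. On chromosome 12 SPRYD3 rose by 0.55 and 0.33 in pairs 2 and 3 (limma adjusted p = 5.48e-05 and 0.0341). There EIF4B and CSAD fell by 0.43 each in pair 2 (adjusted p = 6.53e-04 and 0.00251). On chromosome 17 P3H4 rose by 0.51 in pair 1 (adjusted p = 0.00344) and, without both doubted libraries, by 0.28 in pair 3 (adjusted p = 0.00225), and EIF1, the most abundant, was at 0.02, 0.29 and -0.14 (adjusted p = 0.947, 0.152 and 0.580).

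Markers of tissue origin were set beside the keratins. Of 4 tested markers of retinal pigment epithelium RDH5, a retinol dehydrogenase, rose by 0.42 and 2.19 in pairs 1 and 2 (limma adjusted p = 0.0139 and 1.52e-09). RDH11 and OTX2 fell by 0.59 and by 0.66 in pair 2 (adjusted p = 4.42e-06 and 7.69e-04), and SIX3 did not pass in any pair (adjusted p = 0.340, 0.115 and 0.195) except pair 3 without both doubted libraries (-0.40, adjusted p = 0.0304). All 18 markers of this list had reads, but 2 had fewer than 10 over the 18 libraries and RPE65 had 117. The 4 tested on RPKM held 28250 to 84979 reads each. By limma-voom 11 markers were tested. Pair 2 had 2 increases and 6 decreases past an adjusted p of 0.05 (background 20.4% and 21.4% of genes). Pair 1 had 2 increases (background 10.0%) and no decrease, and pair 3 had neither. The 18 markers summed to 257 to 285 reads per M in diploid and 233 to 304 in tetraploid libraries. Among 15 epithelial markers 1 was tested on RPKM, MUC1, an apical mucin. It fell by 1.58 in pair 2 and by 0.53 in pair 3 (limma adjusted p = 4.91e-07 and 0.0477), the last lost without A of 2N-3 (0.128). By limma-voom 8 epithelial markers were tested. Pair 1 had 3 that rose and 1 that fell (background 10.0% and 9.04% of genes). Pair 2 had 1 and 5 (20.4% and 21.4%), and pair 3 had 0 and 2 (3.36% and 2.95%). The list summed to 17.9 to 21.7 reads per M in diploid and 13.2 to 21.3 in tetraploid libraries.

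Of 8 tested mesenchymal markers pair 1 had 3 that rose, pair 2 had 2 that rose and 5 that fell, and pair 3 had 1 in each direction. Among all genes 10.6%, 21.5% and 1.99% rose in pairs 1 to 3 and 10.3%, 16.0% and 1.41% fell. SNAI2 (Slug), a repressor of epithelial genes, rose by 0.82 and 1.61 in pairs 1 and 2 (limma adjusted p = 5.37e-05 and 1.04e-08), while its relative SNAI1 fell by 1.15 and by 0.48 in pairs 2 and 3 (adjusted p = 1.30e-06 and 0.0254), the last lost without A of 2N-3 (0.0517). COL1A1, a collagen chain, rose by 1.55 in pair 1 and fell by 0.71 in pair 2 (adjusted p = 4.06e-05 and 0.00512), and THY1 rose by 1.45 in pair 2 (adjusted p = 2.76e-07) and, without both doubted libraries, by 0.37 in pair 3 (adjusted p = 0.00418). The list summed to 13293 to 22347 reads per M in diploid and 13632 to 27956 in tetraploid libraries. Of 16 markers of other cell types CD3E, HBB and INS were at 0. CD68, a lysosomal protein of macrophages that other cells also make, was the only one tested, falling by 0.71 in pair 1 and rising by 1.46 in pair 2 (adjusted p = 1.27e-04 and 1.93e-08). That list summed to 45.7 to 61.6 reads per M in diploid and 30.8 to 154 in tetraploid libraries. The part of any of these in the keratin values was not tested.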

How the data were processed

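RNA of 18 libraries (6 clones, 3 each) was made into stranded polyA libraries, per the labels' protocols. CASAVA 1.8.2, TopHat2, edgeR and hg19 are named in the submitters' processing notes, with no settings. The authors deposited RPKM for 57773 genes. The annotation release, the use of strand, read length and library scaling are not given in the sources used here. For 86.0% of 15831 genes with a mean over 50 reads the implied length was within 0.5% of the GENCODE 29 genomic span. Of the values above 0, 100.0% came out as whole reads within 0.01 reads, with 37.2 to 54.4 M per library; precision at low counts follows from these reads.

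Symbols came from GENCODE 29 (52338 genes matched). limma 3.58.1 in R 4.3.3 tested log2(RPKM + 0.5) with a mean trend over all 18 libraries (1 RPKM in 3 libraries), and limma-voom the recovered reads, with Benjamini-Hochberg adjustment over all genes. Clone means were used across clones. The limma fit on RPKM was tried on simulated reads with changes placed in pair 1, and limma-voom was not tried on simulated data. Of 50 changes at each size, 32 were recovered at 1.5-fold, 44 at 2-fold, 48 at 3-fold and 46 at 4-fold. There were 8 false calls in pair 1, with 9247 genes tested. Changes below 1.5-fold were not simulated. Members and lists were chosen with earlier results of these data known. Named genes are all members, up to 4 per list with the largest passing change and its most abundant gene, and the 3 genes of highest r per member.

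Alternatives were pseudocounts of 0.1 and 1, no filter, a 3 RPKM filter, TMM scaling, a robust spread, recovered reads, a replicate block, the libraries of the pair alone and leaving out libraries. Leaving out libraries and the block on recovered reads were added after seeing the data. Principal transcripts gave levels per kilobase of transcript.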

Additional observations from a re-analysis of the deposited data

Results flagged for a closer look

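For 7 keratins the change of 4N over 2N differed between the 3 pairs by a test of the difference itself (F test). They were all 5 tested on RPKM, where 39.0% of all genes passed, and KRT86 and KRT34 on reads, where 41.5% did. The calls of KRT8 and KRT34 were lost in some of the settings given above. The limma adjusted p was 0.00304 for KRT7, 0.0291 for KRT8, 0.0109 for KRT18, 0.00124 for KRT80 and 0.00233 for KRT81, and the limma-voom adjusted p was 2.46e-04 for KRT86 and 0.0223 for KRT34. KRT7 and KRT86 were high in 4N-1, KRT34 in 4N-2, KRT8, KRT18 and KRT80 in both, and KRT81 was low in 4N-3.

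The same limma test of a difference between pairs passed for 25 of the other genes named, where 39.0% of all genes did. They were named for large changes within pairs, so the count is no support. Among the junction genes the adjusted p was 4.25e-06 for ITGA6, 0.00841 for PLEC, 0.00218 for PERP and 0.00844 for DSP. Among filament genes it was 2.11e-04 for NES, 9.85e-04 for LMNB1, 0.00759 for LMNB2 and 0.0143 for LMNA, and for the keratin KRT15 2.49e-06. FAM83H had 1.11e-08, DNAJB6 0.00455 and TFAP2A 0.00329. Beside the clusters SPRYD3 had 0.00815, P3H4 0.00782, EIF4B 0.00256 and CSAD 0.00318. Of the tissue markers RDH5 had 5.16e-07, OTX2 0.0285, RDH11 2.61e-04, MUC1 2.39e-04, SNAI2 9.36e-07, COL1A1 2.89e-05, THY1 7.34e-06, SNAI1 2.08e-04 and CD68 7.30e-08.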

How the results depend on the processing

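Genes called at 2-fold in pairs 1, 2 and 3 numbered 141, 470 and 32. A pseudocount of 0.1 gave 271, 707 and 58, of 1 78, 312 and 20, and recovered reads 1164, 3510 and 589, among more genes tested. A 3 RPKM filter gave 309 and 18 in pairs 2 and 3, and the libraries of pair 3 alone gave 2. Between pairs 1023 were called, against 663 at 3 RPKM and 5207 on reads. Among diploid clones 28 were called, against 50 and 13 at pseudocounts of 0.1 and 1, 17 at 3 RPKM and 527 on reads. Among tetraploid clones 826 were called, against 536 at a pseudocount of 1, 542 at 3 RPKM and 4807 on reads. Leaving out each library gave 27 to 55 in pair 3.

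Members that passed in pair 1 were 3, where 20.9% of all genes passed. On reads they were 5 of 7 tested (KRT7, KRT8, KRT18, KRT80 and KRT86), where 19.1% passed. With the libraries of the pair alone or without both doubted libraries they were all 5 tested on RPKM. KRT81 was thus among them there (limma adjusted p = 0.0042 and 0.0214) but not on reads (limma-voom adjusted p = 0.334). The share of all genes passing in the remaining settings is not given here. Without each library 3 to 5 members passed. In pair 2 they were 3, and 1 to 3 without each library. In pair 3 it was 1, then 0 at 3 RPKM, where KRT7 and KRT81 were not tested, and 0 with the pair alone, and 2 without both doubted libraries (1 to 2 without each). Between pairs and among tetraploid clones 5 became 3 at 3 RPKM (3 to 5 among the latter without each library). Among diploid clones 0 became 2 without both doubted libraries (0 to 2 without each).

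Signs turned for KRT7 in pair 2 (-0.09, -0.04 and -0.02 without 1 library, in a range of -0.09 to 0.06), KRT8 in pair 3 (0.01, range -0.36 to 0.01), KRT18 in pair 3 (0.09, range -0.30 to 0.09), KRT34 in pair 3 (0.50 without both doubted libraries, and a range of -0.42 to 0.35) and KRT86 across clones (-0.01 and -0.02, up to 0.12), none of them past the threshold. The cause was not tested. TMM scaling changed no call of a member. Same-lettered libraries had correlations of -0.12 to 0.22, 3 of 9 over 0.1, and other-lettered ones -0.21 to 0.16, 1 of 18 over 0.1; as not every same-lettered pair was over 0.1, the letters were not taken as pairing. The replicate block gave 138, 467 and 31 genes called in pairs 1 to 3, and an adjusted p of 0.0528 for KRT8 in pair 2. Depth limits KRT19 and KRT17, with at most 13 and 3 reads in a library.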
